A study of Caenorhabditis elegans with 96 samples.

Results

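The UDP-glucuronosyltransferase (UGT) genes of the nematode Caenorhabditis elegans were taken as every protein-coding gene whose symbol begins with ugt- in the annotation of the WBcel235 assembly, which gave 67 of 19985 protein-coding genes. Of these, 63 had at least 10 counts in 4 or more of 96 RNA sequencing libraries and are described here. The other 4, ugt-27, ugt-34, ugt-35 and ugt-38, had at most 17 counts in any library. Whole animals were sequenced from 85 recombinant inbred advanced intercross lines, with names beginning QX, from N2 and from CB4856. N2 is the standard laboratory strain, CB4856 is a wild isolate from Hawaii, and each line is an inbred mosaic of both genomes. All strains were raised in the same way on Escherichia coli HT115 without a further treatment and collected 50 h after hatched, starved larvae were put on food, at a stage labelled L4, the last larval stage. Each line had 1 library, N2 had 4 libraries (batches 3, 6, 8 and 9) and CB4856 had 7 libraries (1 in each of batches 2, 3, 4, 6, 7, 8 and 9), so a value for a line has no replicate. The labels do not say whether libraries of a strain came from separate cultures, and p-values measure the spread between these libraries.

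UGT enzymes attach a sugar from a UDP-sugar donor to small fat-soluble molecules, which makes them easier to excrete. In drug metabolism they act after the cytochrome P450 enzymes, which add reactive groups, and before transporters that pump the conjugates out of the cell, and glutathione transferases do a parallel conjugation. In C. elegans the family is large, many members are active in the intestine, and foreign compounds and endogenous metabolites are often conjugated to glucose. A specific substrate is not given below for single members.

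Libraries had 22069702 to 24001627 gene counts. Levels are given as CPM, which is the gene's count divided by the library's gene counts and multiplied by 1000000. A count of 0 allows up to 3 counts, or 0.125 to 0.136 CPM, which covers counting error only. The animals were sequenced whole, so fewer cells of a type and less RNA per cell cannot be told apart. Genes for yolk proteins, which are made in the adult hermaphrodite intestine, were abundant in all libraries labelled L4 and summed to 17246 to 73777 CPM in lines, 29638 to 34798 CPM in N2 and 22789 to 63912 CPM in CB4856. Between N2 and CB4856, 6 of 7 sperm marker genes were higher in N2 and 4 of 5 oocyte marker genes were lower in N2. By contrast, 0 of 7 intestine markers, 0 of 6 hypodermis and moult markers and 0 of 4 neuron markers were called. The hypodermis and moult markers still all leaned higher in N2 (log2 fold changes 0.38 to 1.05, median 0.88), with SEs of 0.49 to 0.73. Medians were -0.03 for intestine and 0.05 for neuron markers. Of 6 yolk genes, 1 was called, vit-3, higher in N2 (log2 2.59 ± 0.37, SE). Without a call, vit-1, vit-2, vit-5 and vit-6 leaned lower in N2 (log2 -0.52 to -0.42) and vit-4 was at 0.03, so that the median of the yolk genes was -0.45. The first principal component was taken from the 85 lines alone, on 2000 variable genes without the UGT genes, and held 22.5% of their variance. Parental libraries were projected on it. It placed 3 N2 libraries at 9.16 to 43.7, the N2 library of batch 9 at -51.4 and CB4856 libraries at -56.0 to -6.61.

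The UGT genes were concentrated on chromosome V, with 42 of the 67, followed by chromosome IV with 12, I with 5, X with 4, III with 3 and II with 1. Many stood side by side. Runs of members with at most 20 kb between them included 8 genes on chromosome V near ugt-12 to ugt-13, 7 near ugt-5 to ugt-15, 6 near ugt-40 to ugt-36, and 4 on chromosome I, ugt-26, ugt-27, ugt-28 and ugt-25. Exons of ugt-40 and ugt-37 overlapped on the same strand by 42 bp. Several others overlapped genes on the opposite strand, among them ugt-25 with mlst-8, ugt-64 with C07G3.10, ugt-47 with srd-49 and ugt-22 with srz-29, and reads in such overlaps were left out of the counts because the libraries carry no strand information.

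Expression of the family was led by a few members. Summed over the 63 genes, UGT transcripts made up 922 ± 172 CPM in lines (SD, n = 85; range 493 to 1528), 910 ± 143 CPM in N2 (SD, n = 4) and 798 ± 135 CPM in CB4856 (SD, n = 7), and these ranges overlapped. In the lines 7 members averaged under 1 CPM, 34 averaged 1 to 10 CPM and 22 averaged above 10 CPM. At 10 counts or more, 45 members were present in all 96 libraries.

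Per kb of exon, the scale on which genes can be compared, the level in lines averaged 57.2 CPM per kb for ugt-47 (WBGene00011006; V, 10096305 to 10098597), 36.4 for ugt-63 (WBGene00015449; V, 5108180 to 5110772), 36.1 for ugt-62 (WBGene00010904; III, 4537281 to 4540623), 32.9 for ugt-12 (WBGene00020592; V, 4887165 to 4889629) and 24.1 for ugt-46 (WBGene00015141; X, 525928 to 530289). The median member was at 4.01 CPM per kb and the lowest, ugt-67, at 0.146, and the 10 highest members carried 57.3% of the summed CPM per kb. The 5 named members lay on 3 chromosomes. In CPM, ugt-47 had a minimum of 45.3, a median of 86.9 and a maximum of 167 in lines, ugt-63 had 3.06, 53.5 and 110, and ugt-62 had 15.3, 58.7 and 155. The level of ugt-12 had a minimum of 29.3, a median of 54.9 and a maximum of 110 CPM in lines, and that of ugt-46 had 18.4, 68.1 and 169 CPM. Thus ugt-47 and ugt-12 varied 3.69-fold and 3.75-fold between extreme lines, while ugt-63 varied 35.9-fold.

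The comparison of N2 with CB4856 gives the differences between the parents that the lines could inherit. N2 had higher RNA of a set of UGT genes headed by the chromosome I neighbours ugt-25 and ugt-28 and the chromosome V genes ugt-29, ugt-64 and ugt-53, and lower RNA of ugt-32 and ugt-42. Of 59 members tested, 13 (22%) differed in edgeR's quasi-likelihood test with an adjusted p under 0.05 (called below), 10 higher and 3 lower in N2, against 33.9% of all 14858 genes (17.9% higher, 16% lower). At an unadjusted p under 0.05 there were 19 members, against 44.4% of all genes. The median log2 fold change, N2 over CB4856, was 0.06 for the members and 0.03 for all genes tested. Libraries of N2 and CB4856 did not overlap for 7 of the 59 members and for 16.4% of all genes. The share of UGT genes called was below that of all genes, but with batch as a replicate block it was above it (11 of 59 members, against 14.9% of all genes), and neither difference was tested. The genes ugt-3, ugt-10, ugt-56 and ugt-67 had too few counts in the parents to be tested.

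ugt-25 (WBGene00015692; I, 4731606 to 4735276) had the smallest p-value and the highest fold change of the family. It was at 13.3, 13.6, 13.6 and 20.2 CPM in the N2 libraries of batches 3, 6, 8 and 9, against 0.422, 0.917, 0.869, 0.886, 0.592, 0.508 and 0.81 CPM in the CB4856 libraries of batches 2, 3, 4, 6, 7, 8 and 9. Every N2 library lay far above every CB4856 library, a 20.6-fold difference (log2 4.36 ± 0.22, SE; adjusted p = 5.08e-08, edgeR). Its neighbour ugt-28 (WBGene00015693; I, 4727280 to 4730366), whose start lies upstream of ugt-25 on the same strand, was at 9.47, 7.95, 8.89 and 13.2 CPM in the same N2 libraries, against 2.32, 2, 3.17, 2.74, 1.86, 2.07 and 4.86 CPM in the CB4856 libraries. The groups did not overlap and the difference was 3.55-fold (log2 1.83 ± 0.26, SE; adjusted p = 0.000304, edgeR). The other described gene of the run, ugt-26 (I, 4721131 to 4723982), was at 14.1, 24.6, 28.1 and 8.87 CPM in N2, against 12.6, 7.25, 12.2, 8.69, 8.07, 8.76 and 9.25 CPM in CB4856. These groups overlapped through the N2 library of batch 9, and the call (log2 0.95 ± 0.27, SE; adjusted p = 0.0182, edgeR) was lost with batch as a replicate block at a similar fold change (log2 1.01, adjusted p = 0.0696, edgeR) and with the first principal component as a covariate, where the log2 fold change was 0.24 (adjusted p = 0.445, edgeR).

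On chromosome V, ugt-64 (WBGene00015577; 3503080 to 3506352) was at 69, 55.1, 67.4 and 64.9 CPM in N2, against 25.7, 14.3, 25.6, 20.1, 20.8, 16.5 and 16.2 CPM in CB4856. ugt-29 (WBGene00021709; 696524 to 699589) was at 14.8, 25.1, 22.1 and 12 CPM in N2, against 2.07, 1.33, 3.56, 1.86, 1.82, 3.98 and 4.39 CPM in CB4856. For both, all N2 libraries were above all CB4856 libraries, 3.13-fold for ugt-64 (log2 1.65 ± 0.16, SE; adjusted p = 1.63e-05, edgeR) and 6.66-fold for ugt-29 (log2 2.74 ± 0.32, SE; adjusted p = 7.86e-05, edgeR). ugt-53 (WBGene00020182; V, 2849343 to 2852028) was at 10.2, 12.7, 13.2 and 4.37 CPM in N2, against 4.65, 1.5, 1.43, 2.02, 2.96, 1.35 and 0.895 CPM in CB4856. Its groups met at the N2 library of batch 9, the call (log2 2.20 ± 0.43, SE; adjusted p = 0.00291, edgeR) narrowly missed the threshold with the first component as a covariate (log2 1.59, adjusted p = 0.0519, edgeR), and the cause was not tested. ugt-31 (WBGene00021464; I, 2333338 to 2338693) was low in both strains, at 2.57, 5.94, 3.93 and 4.37 CPM in N2, against 1.06, 0.583, 1.69, 0.590, 0.507, 1.40 and 1.24 CPM in CB4856. Again no library of one strain reached the other, and the difference was 4.08-fold (log2 2.03 ± 0.33, SE; adjusted p = 0.00105, edgeR).

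The 3 called members below 0 were lower in N2. ugt-32 (WBGene00018543; V, 3841794 to 3844007) was at 1.30, 1.54, 1.33 and 1.15 CPM in N2, against 4.31, 1.87, 8.77, 5.69, 2.96, 4.48 and 4.52 CPM in CB4856. The N2 libraries were alike, the CB4856 libraries were spread, and they did not overlap (log2 -1.84 ± 0.36, SE; adjusted p = 0.00291, edgeR). ugt-42 (WBGene00017959; V, 647188 to 649763) was at 0.589, 0.556, 0.983 and 1.23 CPM in N2, against 1.06, 1.42, 1.65, 2.28, 1.86, 2.33 and 2.64 CPM in CB4856. The batch 9 library of N2 exceeded the batch 2 library of CB4856, and the call (log2 -1.21 ± 0.31, SE; adjusted p = 0.0116, edgeR) was lost with the first component as a covariate at a similar fold change (log2 -1.11, adjusted p = 0.0534, edgeR). ugt-39 was lower in N2 at less than 2-fold (log2 -0.86 ± 0.26, SE; adjusted p = 0.0238, edgeR; 0.158 with the replicate block).

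The remaining calls were small or sparse. ugt-36 (WBGene00017315; V, 7167009 to 7169281) was at 0.421, 0.770, 0.812 and 1.02 CPM in N2, against 0.211, 0.417, 0.304, 0.337, 0.254, 0.212 and 0.682 CPM in CB4856, and these values overlapped. Its difference (log2 1.08 ± 0.35, SE; adjusted p = 0.0307, edgeR) had an adjusted p of 0.164 with the replicate block and 0.0675 in DESeq2. ugt-46, one of the 5 highest per kb, was at 68.2, 107, 80.8 and 50.0 CPM in N2, against 53.2, 39, 54.1, 54.1, 57.6, 51.2 and 40.5 CPM in CB4856, so that 1 N2 library fell among those of CB4856. The log2 fold change of ugt-46 was 0.57 ± 0.18 (SE; adjusted p = 0.03, edgeR) and 0.18 with the first component as a covariate (adjusted p = 0.447, edgeR). ugt-41 (WBGene00017336; V, 7161068 to 7163595) was at 43.8, 39.1, 37.7 and 36.3 CPM in N2, against 27.3, 34.5, 24, 32.5, 32.1, 32.3 and 30.9 CPM in CB4856. Those ranges were separate but close (log2 0.32 ± 0.11, SE; adjusted p = 0.0345, edgeR; 0.104 with the replicate block).

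Calls of ugt-25, ugt-64, ugt-29, ugt-28, ugt-31 and ugt-32 were kept in each alternative fit of the parents, including the leaving out of each library in turn. The family's count fell to 8 without the N2 library of batch 8, with 21.5% of all genes called, and was 20 without the N2 library of batch 9, with 43.2% of all genes called. Of the 11 members called with batch as a replicate block, 9 were among the 13, and ugt-15 (log2 -1.09, adjusted p = 0.0457, edgeR) and ugt-18 (log2 -2.28, adjusted p = 0.0106, edgeR) were added. Sperm and oocyte markers differed between the parents, as did position on the first component, and hypodermis and moult markers leaned higher in N2 without a call. The part of these differences in the smaller UGT differences was not tested beyond that covariate.

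**Figure D1:**
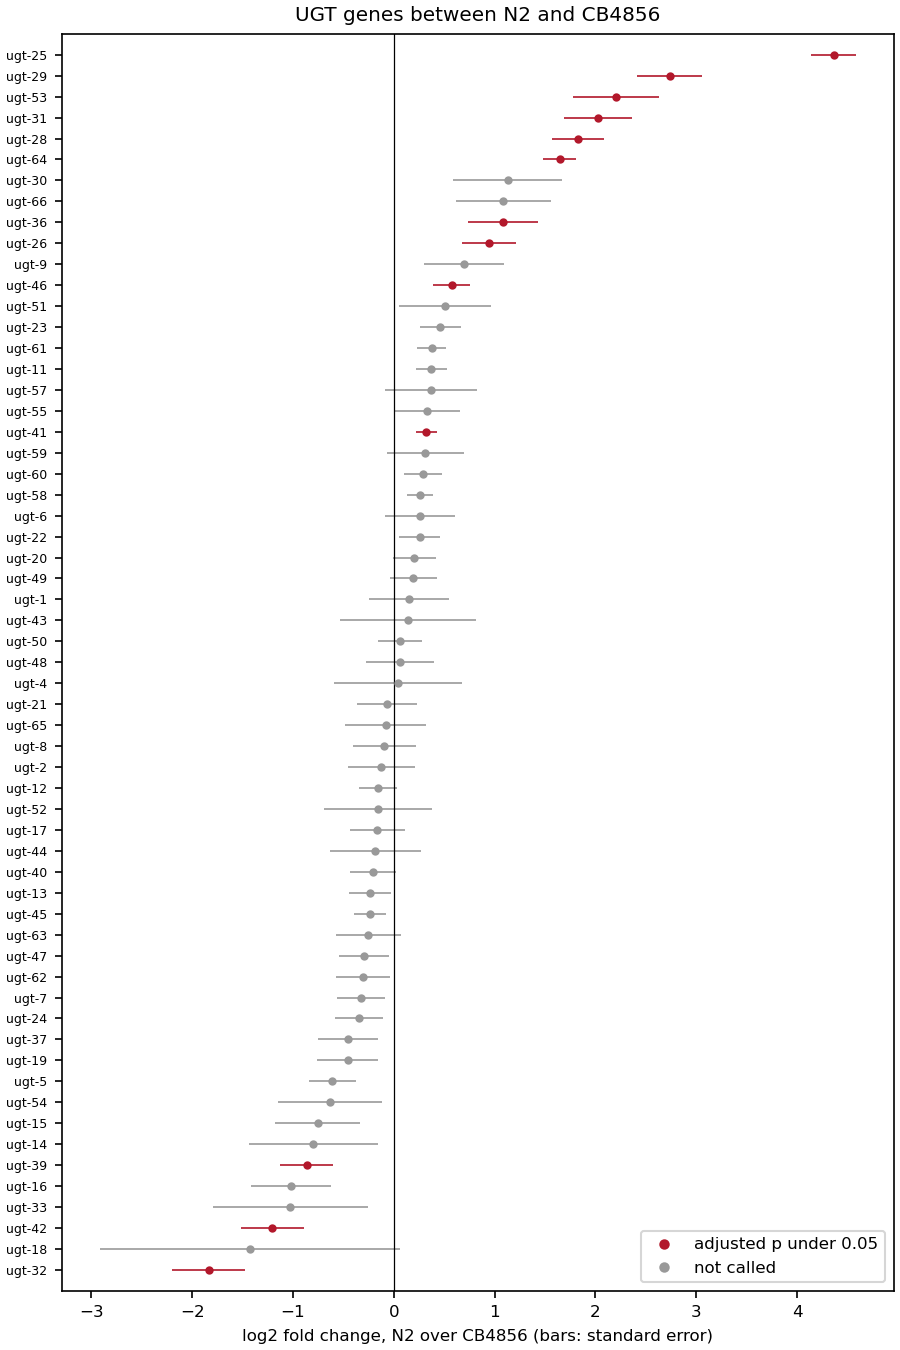
Log2 fold change of N2 over CB4856 for the 59 UGT genes tested, with the standard error from edgeR's fit as bars; called genes (adjusted p under 0.05) are red and others grey. Most of the family lies near 0, ugt-25 stands alone at 4.36, and 3 called genes, ugt-32, ugt-42 and ugt-39, lie below 0.

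Several abundant members did not differ beyond the spread between libraries in the fit without a covariate. The log2 fold change of N2 over CB4856 was -0.31 ± 0.27 for ugt-62 (SE; adjusted p = 0.398, edgeR), 0.26 ± 0.21 for ugt-22 (SE; adjusted p = 0.351, edgeR) and -0.29 ± 0.25 for ugt-47 (SE; adjusted p = 0.377, edgeR). With the first component as a covariate, ugt-47 was called as lower in N2 (log2 -0.91, adjusted p = 0.00427, edgeR), while ugt-62 and ugt-22 were not called. ugt-62 was at 35.4, 67.4, 54 and 27.3 CPM in N2, against 71.2, 34, 79.2, 53.3, 54, 42.8 and 53.4 CPM in CB4856. Libraries of the same strain thus differed more than 2-fold in this gene. ugt-9 (WBGene00020587; V, 4896048 to 4897969) was at 5.68, 1.97, 2.01 and 8.07 CPM in N2, against 3.30, 2.33, 3.52, 3.12, 2.83, 1.31 and 2.17 CPM in CB4856. Of its N2 libraries, 2 lay above every CB4856 library and 2 lay inside the CB4856 range, with no call (log2 0.70 ± 0.40, SE; adjusted p = 0.194, edgeR), although the first component as a covariate gave one (log2 1.23, adjusted p = 0.0206, edgeR).

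Other genes of the detoxification pathway were set beside the family. Between N2 and CB4856, 18 of 58 cytochrome P450 genes (symbols beginning cyp-) were called, 2 higher and 16 lower in N2, with a median log2 fold change of -0.25. Of 37 glutathione transferase genes (gst-), 13 were called, 10 higher and 3 lower, with a median of 0.32. The efflux transporters (pgp- and mrp-) had 10 of 21 called, 3 higher and 7 lower, with a median of 0.01. These shares were 31%, 35.1% and 47.6%, against 33.9% of all genes tested (17.9% higher and 16% lower in N2). The first 2 were thus close to the share of all genes, and no difference from it was tested for any list here. For the supply of UDP-sugars, 2 of 4 genes were called (50%). The UDP-glucose dehydrogenase gene sqv-4, whose product makes UDP-glucuronic acid, averaged 120 CPM in N2 and 168 CPM in CB4856 (log2 -0.52 ± 0.11, SE; adjusted p = 0.00399, edgeR). The UDP-galactose epimerase gene gale-1 averaged 123 CPM in N2 and 68.4 CPM in CB4856 (log2 0.81 ± 0.17, SE; adjusted p = 0.00403, edgeR). Of 8 regulators of responses to foreign compounds, the nuclear receptor genes nhr-86 (log2 -0.43 ± 0.09, SE; adjusted p = 0.00499, edgeR) and nhr-176 (log2 0.95 ± 0.16, SE; adjusted p = 0.00124, edgeR) were called (25%).

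The lines show whether a parental difference reappears as separate levels in recombinant genomes. ugt-25 had a minimum of 0.341, a median of 11.3 and a maximum of 30.4 CPM in lines, and the widest step in its ordered values, measured in log2, lay between 1.17 and 7.07 CPM. Below the step were 23 lines, around the range of CB4856, and above it were 62, of which 27 were at or above the lowest N2 library. Between the parents lay 38 lines, and 20 were at or below the highest CB4856 library. ugt-28 had a minimum of 0.863, a median of 8.48 and a maximum of 20.5 CPM, with its widest step between 2.78 and 5.55 CPM and again 23 lines below it. The 23 lines below the step were the same for both genes, and they came from all 7 batches, with 2 to 5 lines in each. The sets were cut at the widest step, so the absence of lines between them follows from the cut, and only the width of the step is a result. No line combined a low level of one gene with a high level of the other.

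Among the 62 lines above the step, ugt-25 and ugt-28 also varied together (Pearson r of log2 CPM 0.486, permutation p = 0.00012; Spearman rho 0.346, permutation p = 0.00611; r = 0.343 without the 2 lines farthest from the median of ugt-25). In the 23 lines below it r was 0.00107 (permutation p = 0.996) and rho was 0.00395 (permutation p = 0.987), and r was -0.0473 without 2 lines. With Benjamini-Hochberg adjustment over these 2 sets of lines, the permutation p was 0.00024 for r and 0.0122 for rho above the step. Counts of ugt-25 were low in the 23 lines below the step, which limits the precision of r there. ugt-26, in the same run of genes, had a minimum of 6.90, a median of 9.92 and a maximum of 39.4 CPM in the 23 lines, against 3.73, 10.4 and 64.6 CPM in the other 62. The ranges of ugt-26 overlapped almost wholly, and no separate levels like those of ugt-25 and ugt-28 were seen.

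**Figure D2:**
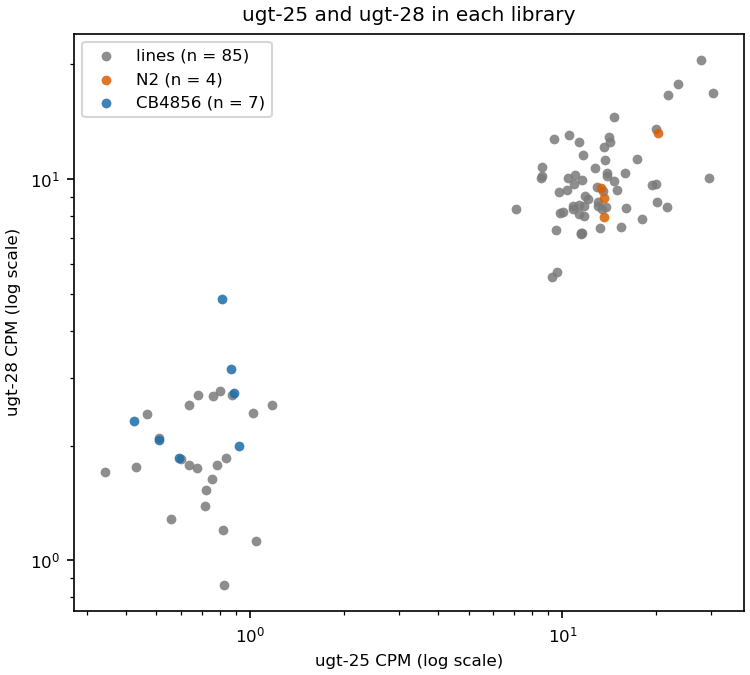
Level of ugt-28 against that of ugt-25 in CPM, log scales, with 1 point per library for 85 lines, 4 N2 libraries and 7 CB4856 libraries. The 23 low lines lie with CB4856, at or below 1.17 CPM of ugt-25 and 2.78 CPM of ugt-28, and the 62 high lines lie at 7.07 CPM of ugt-25 or above, with the N2 libraries among them.

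ugt-29 had a minimum of 1.10, a median of 15.7 and a maximum of 55.5 CPM in lines. Its widest step, between 5.88 and 7.94 CPM, was narrower than that of ugt-25 and also left 23 lines below it, of which 7 were among the 23 low lines of ugt-25. ugt-64 had a minimum of 10.02, a median of 23.2 and a maximum of 70.03 CPM in lines, and 75 lines lay at or below 43.6 CPM and 10 at or above 48.6 CPM. That step, its widest, was only 0.196 log2, against 0.553 log2 for ugt-29 and 2.56 log2 for ugt-25, and does not mark separate sets of lines. Of the 85 lines, 8 reached the lowest N2 library of ugt-64, 24 lay between the parents, and 53 lay at or below the highest CB4856 library. For ugt-29 more lines were at the level of N2, with 58 lines at or above the lowest N2 library, 9 between the parents and 18 at or below the highest CB4856 library.

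Levels of other called genes also formed a continuous range in lines, with widest steps of 0.204 log2 for ugt-31, 0.138 log2 for ugt-32 and 0.367 log2 for ugt-53. ugt-31 had a minimum of 0.0843, a median of 2.57 and a maximum of 38.2 CPM, with 43 lines at or above the lowest N2 library and 17 at or below the highest CB4856 library. ugt-32 had a minimum of 0.807, a median of 2.87 and a maximum of 14.5 CPM, with 13 lines at or below the highest N2 library and 64 at or above the lowest CB4856 library. ugt-53 had a minimum of 0.128, a median of 6 and a maximum of 41 CPM, a 320-fold range, with 25 lines above and 8 lines below every parental library. For ugt-53, lines therefore ran beyond both parents in both directions. ugt-41, whose parents were close, did the same, with a minimum of 7.77, a median of 34.3 and a maximum of 92.0 CPM. It had 20 lines above and 14 lines below every parental library. Members not called between the parents had such lines too. Their counts were 33 above and 4 below for ugt-63, and 11 above and 19 below for ugt-7. Lines far outnumber parental libraries, so some can lie outside the parental range by sampling alone. Whether ugt-53 or ugt-41 exceeded that, or the share among all genes, was not tested.

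**Figure D3:**
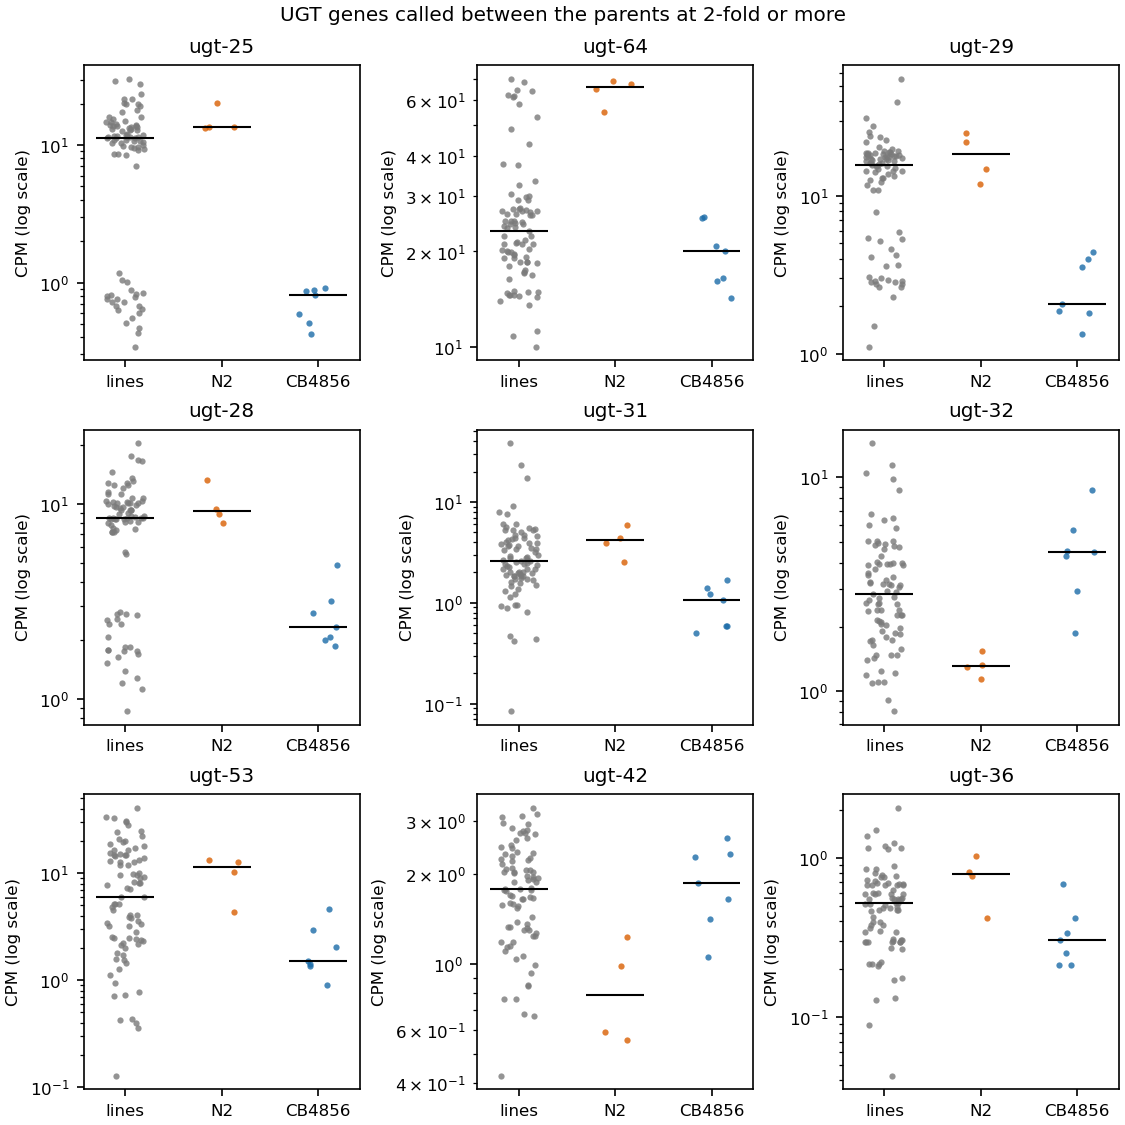
Levels in CPM (log scale) of the 9 UGT genes called between the parents with a fold change of at least 2, in 85 lines, 4 N2 libraries and 7 CB4856 libraries; each point is a library and black lines are medians. ugt-25 and ugt-28 form 2 separate sets of lines, ugt-64 has most lines at the level of CB4856, and ugt-53 spreads beyond both parents.

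Spread among lines was set against spread within the parental strains as a ratio of variances of log2 CPM, which includes whatever differs between libraries. The ratio was 26.6 for ugt-25, 8.04 for ugt-41, 7.45 for ugt-28, 4.99 for ugt-64 and 4.96 for ugt-53, the 5 highest of the family. With batch means removed from the lines only, the same genes had ratios of 26, 6.71, 6.94, 4.11 and 4.03. The parental variance kept its spread between batches in these ratios. The ratio of ugt-41 was 18.7 without the CB4856 library of batch 4, and that of ugt-28 was 15.4 without the CB4856 library of batch 9. Over the family the median ratio was 1.18, against 1.62 for all 16500 genes, and it was above 1 in 37 members (58.7%), against 80.6% of all genes. With batch means removed from the lines, the medians were 0.87 for the family and 1.28 for all genes. A ratio of at least 4 was found in 8 members, against 10.1% of all genes. The median SD of UGT genes was 0.56 log2 among lines and 0.50 log2 within the parental strains, against 0.39 and 0.30 log2 for all genes, with no test of these differences.

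Extreme values were gathered in a few lines. QX571 of batch 7 had the highest level of 13 of the 63 members, QX519 of batch 9 of 10, QX491 of 6 and QX503 of 5, and 24 lines in all were highest for at least 1 member. The share of all genes that were highest in each of these lines was not counted. These counts are therefore not shown to be particular to the family. In QX571, ugt-60 was at 36.2 CPM, 2.40 times the next line, and ugt-31 was at 38.2 CPM, 1.63 times the next line. The summed UGT level was 1528 CPM in QX571 and 1436 CPM in QX519. QX571 was also the highest of all lines on the first component (78.3, against a lowest value of -57.1), had the lowest summed oocyte markers of all lines (2269 CPM) and exceeded 82 of the other 84 lines in summed intestine markers (7232 CPM). QX519 exceeded 81 lines in intestine markers (7155 CPM) and 84 in neuron markers (372 CPM). The part of these marker levels in the high UGT levels was not tested. Other extremes were single genes, such as ugt-43 in QX501 at 36.2 CPM, 30.3 times the median line.

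As a group, the lines did not differ from the midpoint of the parents at an adjusted p under 0.05. In edgeR's quasi-likelihood test 0 of 63 members were called, against 0.0364% of all 16500 genes, with 0 in each alternative fit as well, and 6 had an unadjusted p under 0.05 (9.52%, against 7.66% of all genes). These 6 were ugt-25 (log2 1.65 ± 0.55, SE), ugt-29 (1.01), ugt-31 (0.87), ugt-3 (0.69) and ugt-42 (0.55) above the midpoint and ugt-64 (-0.41) below it. The median log2 difference, lines minus midpoint, was 0.17 for the members and 0.04 for all genes, and it was positive for 54 of 63 members and for 58.4% of all genes. The lines enter as the log of their mean and the parents as the mean of 2 logs, so a value away from 0 can arise from the scale alone.

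Batches of lines differed for most of the family. Across the 7 batches, 53 of 63 members (84.1%) were called in edgeR's quasi-likelihood test, against 79.5% of all 16030 genes, a share close to the background. Each batch was then compared with the mean of the other batches. In batch 9, 31 members were called, 21 higher and 10 lower, against 23.6% of all genes (12.5% higher, 11.1% lower). In batch 3, 26 were called, 1 higher and 25 lower, against 28% (16.2% and 11.8%). Those batches had the most UGT calls. Calls of batch 3 were nearly all lower, while batch 9 was mixed, with 36 members above 0, 27 below 0 and a median log2 difference of 0.05. Batch 7 had 23 called, 20 higher and 3 lower, against 44% (25.3% and 18.8%), and batch 8 had 20, 8 higher and 12 lower, against 46.1% (27.7% and 18.3%). Batch 4 had 15, 9 higher and 6 lower, against 8.15% (3.69% and 4.45%), and batch 2 had 13, 8 higher and 5 lower, against 34.6% (13.1% and 21.5%). Batch 6 had 2 higher and 0 lower, against 2.88% (2.35% and 0.53%), and 16 members at an unadjusted p under 0.05, against 24.1% of all genes.

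The lines of batch 3 had low UGT levels across the family. Their log2 difference from the other batches was below 0 for 57 of 63 members, with a median of -0.35 against -0.02 for all genes, and the summed level was 715 ± 114.7 CPM (SD, n = 10), the lowest of the batches. Batch 7 was highest, at 1028 ± 190 CPM (SD, n = 11), followed by batch 6 at 990 ± 156 CPM (SD, n = 13). Its mean includes QX571 at 1528 CPM, while its other lines were at 854 to 1157 CPM, so its rank above batch 6 rests on QX571. Intestine markers moved in the same directions, with 5 of 7 lower in batch 3 (median log2 -0.36; median sum 4252 CPM) and 5 of 7 higher in batch 7 (median log2 0.28; median sum 5749 CPM), and their part was not tested. Cytochrome P450 genes had 16 lower and 2 higher of 63 in batch 3, glutathione transferases had 7 lower and 0 higher of 41, and efflux transporters had 5 lower and 1 higher of 22. The shares called were 28.6%, 17.1% and 27.3%, near or below the 28% of all genes (16.2% higher, 11.8% lower). With the first component as a covariate, 14 members were called in batch 3, against 7.89% of all genes, and 1 in batch 7, against 0.524%. Without QX571, 11 were called in batch 7, against 22.3% of all genes, so the counts in batch 7 fell for the family and for all genes alike.

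Parental libraries of a batch, which did not enter these fits, can be set beside its lines. Of the 26 members called in batch 3, the CB4856 library of that batch differed from the median of the other CB4856 libraries in the same direction for 24 and the N2 library for 22, while over all genes called in batch 3 the shares were 95.8% and 89.4%. In batch 4 the CB4856 library did so for 15 of 15 members and 94.4% of all called genes. In batch 9 the CB4856 library did so for 26 of 31 and the N2 library for 26 of 31 (85.3% and 88.2% of all called genes). In batch 7 the CB4856 library did so for 18 of 23 (63.4% of all called genes), and in batch 2 for 12 of 13 (82.4%). In batch 8 both parental libraries did so for 15 of 20 (80.1% for CB4856 and 84.3% for N2), although CB4856 did so for only 3 of the 8 higher members. In batch 6 the CB4856 library did so for 1 of 2 and the N2 library for 2 of 2 (70.7% and 91.1%).

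**Figure D4:**
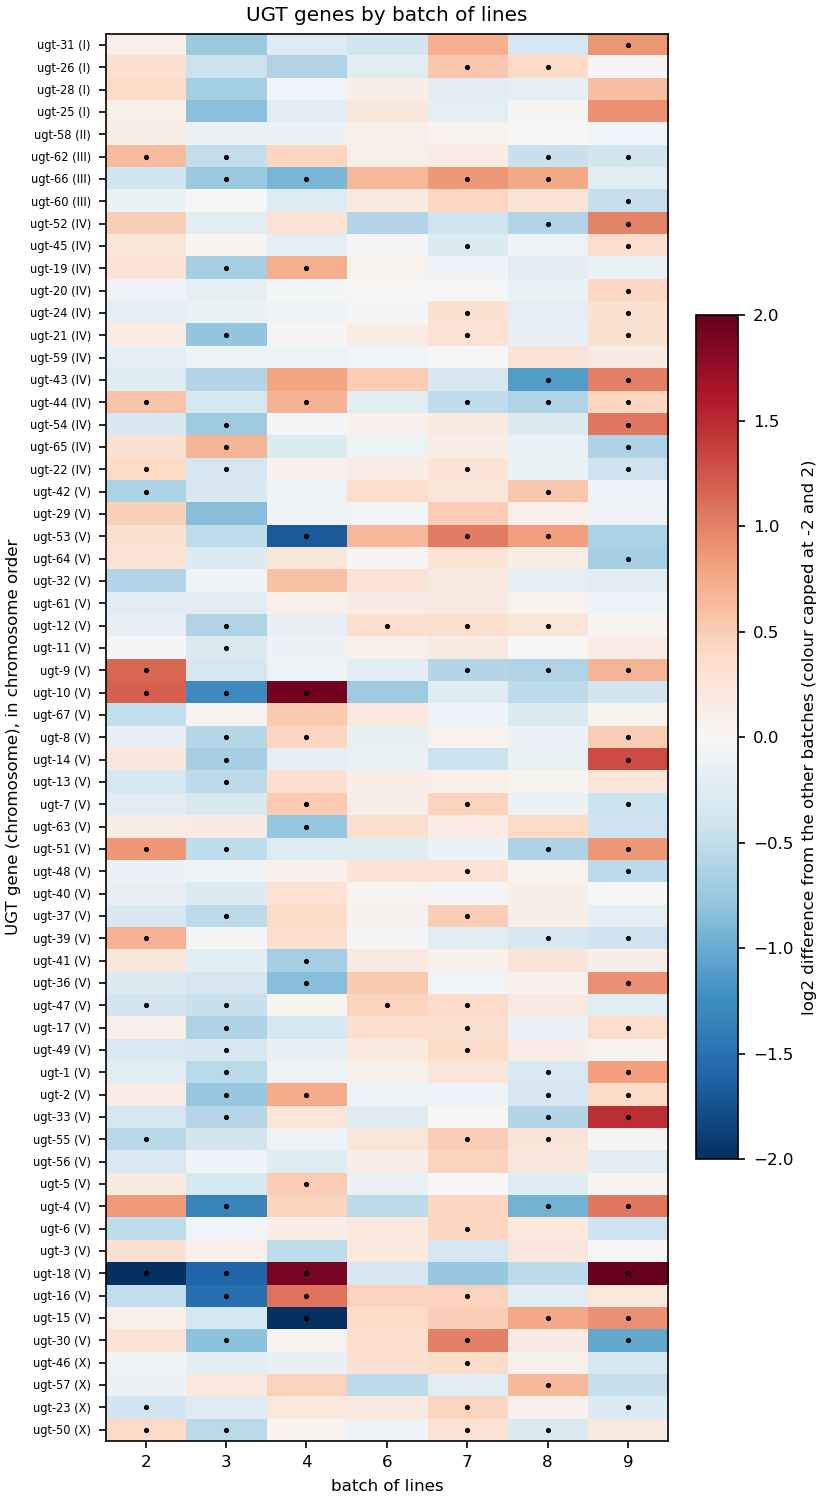
Log2 difference of each batch of lines from the mean of the other 6 batches for 63 UGT genes in chromosome order, with colour capped at -2 and 2; dots mark adjusted p under 0.05 in edgeR's quasi-likelihood test. Batch 3 is blue for 57 of 63 genes, and ugt-18 stands out in batches 9 and 4.

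The gene with the smallest p-value over batches was ugt-18 (WBGene00013900; V, 12820260 to 12822778; adjusted p = 6.74e-14, edgeR). In lines of batch 9 it had a minimum of 0.384, a median of 10.8 and a maximum of 43 CPM (log2 3.47 ± 0.32 against the other batches, SE), and in lines of batch 4 it had 1.33, 4.10 and 12.9 CPM (log2 1.90 ± 0.36, SE; adjusted p = 5.81e-05, edgeR). Medians of the other batches lay between 0.455 and 1.12 CPM. In the parents ugt-18 was at 0.0842, 0.128, 0.171 and 8.28 CPM in N2, the last in batch 9, against 0.972, 0.375, 6.43, 1.35, 0.719, 0.804 and 29.5 CPM in CB4856, where batches 4 and 9 were again highest. The batch 9 libraries of both parents were thus the highest of their strain. The neighbour ugt-16 (WBGene00013901; V, 12825024 to 12827442; adjusted p = 1.36e-09 over batches, edgeR) followed another order, with a median of 24.9 CPM in batch 4 (log2 1.08 ± 0.17, SE), 4.92 CPM in batch 3 (log2 -1.50 ± 0.22, SE) and 12.8 CPM in batch 9. Between the parents ugt-16 was at 7.37, 15, 7.65 and 7.85 CPM in N2, against 12.8, 6.29, 26, 16.4, 25.2, 13.6 and 30.6 CPM in CB4856, which overlapped and was not called (log2 -1.02 ± 0.40, SE; adjusted p = 0.0686, edgeR); it was called in DESeq2 (adjusted p = 0.0144).

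The other 3 genes named by this rule moved in different batches. ugt-2 (WBGene00007073; V, 10398801 to 10401307; adjusted p = 2.05e-12 over batches, edgeR) had a median of 13.5 CPM in lines of batch 4 (log2 0.74 ± 0.10, SE) and 5.44 CPM in batch 3 (log2 -0.76 ± 0.11, SE). ugt-30 (WBGene00011340; V, 15121724 to 15125262; adjusted p = 1.83e-10 over batches, edgeR) had a median of 8.86 CPM in batch 7 (log2 1.01 ± 0.15, SE) and 2.28 CPM in batch 9 (log2 -1.02 ± 0.16, SE). The N2 library of batch 9 was likewise the lowest of N2 for ugt-30, at 1.02 CPM against 6.27, 13.9 and 10.3 CPM in batches 3, 6 and 8, while that of CB4856 was at 3.71 CPM, inside the range of 1.65 to 5.66 CPM of the other CB4856 libraries. ugt-33 (WBGene00007946; V, 10493409 to 10496477; adjusted p = 2.8e-10 over batches, edgeR) had a median of 2.37 CPM in batch 9 (log2 1.48 ± 0.16, SE), against medians of 0.861 to 1.31 CPM in the other batches. In batch 9, 36 of 63 cytochrome P450 genes (57.1%) were called as well, 32 of them higher, against 23.6% of all genes (12.5% higher, 11.1% lower). There 5 of 6 hypodermis and moult markers were lower, and their part was not tested.

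**Figure D5:**
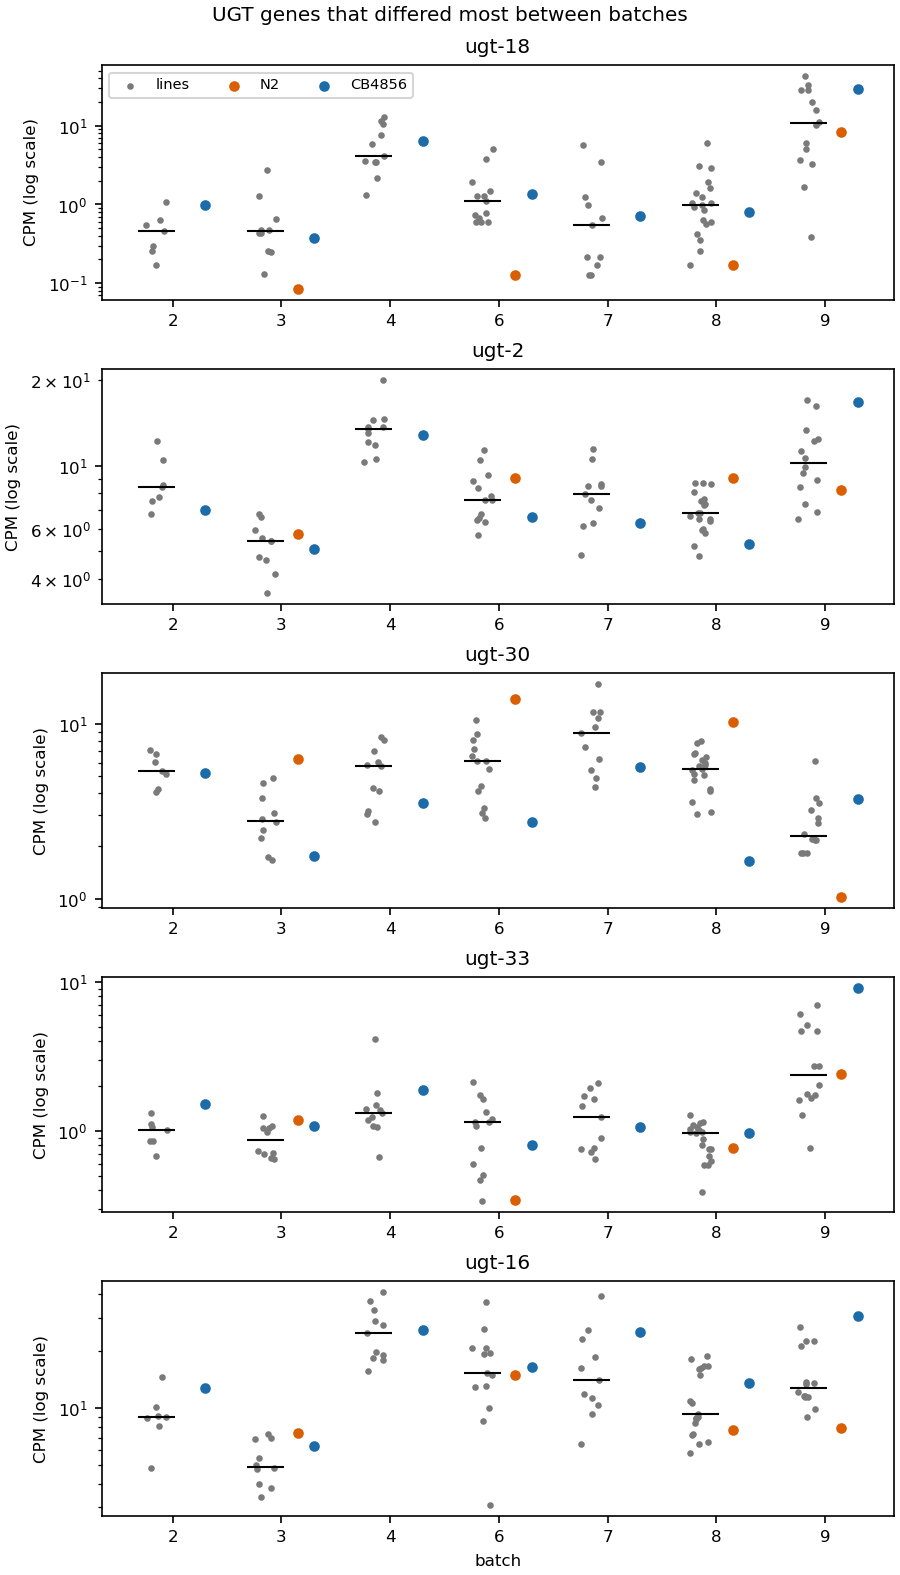
Levels in CPM (log scale) by batch of the 5 UGT genes with the smallest p-values over batches, with lines as small grey points, their median as a black line, and N2 and CB4856 as larger points. ugt-18 is highest in batches 9 and 4 in lines and in CB4856, and ugt-30 is lowest in batch 9 in lines and in N2.

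Neighbouring UGT genes were compared across lines, since many lie side by side. Of 24 pairs of described neighbours at most 20 kb apart, 14 had a Pearson correlation of log2 CPM, batch means removed, with an adjusted permutation p under 0.05 over the 24 pairs, and 13 of these were positive. Spearman's rho gave 13 pairs. The median r was 0.267 for neighbours and 0.0939 for the other 1929 pairs of members (quartiles -0.05 and 0.24), as a description, since the pairs share libraries and genes. ugt-28 with ugt-25 is one of the 14 and is described by its separate sets of lines above.

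The other leading pairs were ugt-39 with ugt-41, ugt-5 with ugt-4, ugt-14 with ugt-13 and ugt-47 with ugt-17. For ugt-39 with ugt-41, r was 0.539 and rho 0.411 (permutation p = 1e-05 for r, the smallest that 100000 resamples give; adjusted 8e-05), but r was 0.376 without the 2 lines farthest from the median. ugt-5 and ugt-4, 48 bp apart on the same strand, had r = 0.510 and rho = 0.468 (adjusted permutation p = 0.00014 for r and 0.00016 for rho; r = 0.498 without 2 lines). Further close neighbours were called at lower r, such as ugt-9 with ugt-10, 57 bp apart (r = 0.258, adjusted permutation p = 0.03). ugt-16 and ugt-15, 76 bp apart, had r = 0.320 (adjusted permutation p = 0.00795), but r = 0.0621 with batch means left in (adjusted permutation p = 0.626). Some close neighbours were not called, or only under other settings. ugt-4 and ugt-6, 144 bp apart on the same strand, had r = -0.148 (adjusted permutation p = 0.222), but r = -0.240 with batch means left in (adjusted permutation p = 0.0396) and r = -0.285 with the first component regressed out (adjusted permutation p = 0.015). ugt-18 and ugt-16 had r = 0.0211 (adjusted permutation p = 0.847), but r = 0.333 with batch means left in (adjusted permutation p = 0.00384). The pair of ugt-3 and ugt-18 was negative (r = -0.255, rho = -0.272; adjusted permutation p = 0.0322 for r and 0.025 for rho; r = -0.285 without 2 lines). Across chromosomes, and with no test since they were picked for their size, the highest values of r were 0.793 for ugt-62 on III with ugt-19 on IV and 0.790 for ugt-60 on III with ugt-63 on V.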

How the data were processed

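RNA of 96 libraries (85 lines, 4 of N2 and 7 of CB4856, grouped by the strain in the titles) was made into BGISEQ-500 libraries, per the labels' protocols. The authors deposited whole-number read counts per gene in the layout of STAR's gene counting, and the submitters' processing notes name STAR 2.73a, FastQC, DESeq2 and the build WBcel235. Reads on overlapping genes (0.885% on average) or at several places (5.24%) are in no gene count, and 92.6% of reads were in genes. Counts on either strand had a ratio of 0.957 to 1.04 per library, so the unstranded column was used. WBcel235 is built from N2, and whether reads of CB4856 alleles were lost was not tested. Symbols and positions, counted from 1, come from Ensembl release 115, which held 46817 of 46904 identifiers.

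Tests used edgeR 4.0.16 under R 4.3.3 (filterByExpr, TMM, robust quasi-likelihood test, two-sided, Benjamini-Hochberg over all genes tested, threshold 0.05) and the tests were tried on simulated data. N2 was compared with CB4856 in their 11 libraries, lines with the parental midpoint in all 96, and batches among the 85 lines. Standard errors of log2 fold changes are the fold change over the root of F. Log2 CPM used a prior count of 2. Correlations used 100000 permutations, two-sided. The alternatives were DESeq2 1.42.0, other size factors and filters, a replicate block, the first component as a covariate, a prior count of 0.5, and leaving out libraries; leaving out QX571 was added after seeing the data. The titles give batches, so a shared batch number pairs parental libraries; across genes, the r of a pair's deviations from its strain means was 0.298 (batch 3), 0.0819 (batch 6), 0.569 (batch 8) or 0.148 (batch 9).

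The genes named are those called between the parents at 2-fold or more, the 5 with the smallest p over batches, the 5 highest variance ratios, the 5 highest per kb, and ugt-9, ugt-16, ugt-22, ugt-25 and ugt-62; others named (ugt-26, ugt-39, ugt-3, ugt-15, ugt-43, ugt-60 and the correlated pairs) were chosen after their values were seen. The members, gene lists and tests were chosen with earlier results of these data known. No 2 libraries agreed within sampling noise (lowest chi-square per degree of freedom 7.43). The limit set by 3 counts covers counting error alone, as there are no molecular identifiers.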

Additional observations from a re-analysis of the deposited data

Results flagged for a closer look

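Single libraries of N2 or CB4856 stood apart from the others of their strain for 5 of the 24 UGT genes examined, in 6 of 48 groups. The gap to the nearest library was 0.706 to 0.989 of the range of the group. Chance alone sets apart about 1 group in 20, but that rate cannot be used for a comparison here. Among the flagged genes, ugt-18, ugt-33 and ugt-16 had been named for their differences between batches, and the groups share libraries. Of the 6 values, 5 came from the libraries of batch 9.

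The N2 library of batch 9 had 20.2 CPM of ugt-25, against 13.3 to 13.6 CPM in the other N2 libraries. The same library had 8.28 CPM of ugt-18, against 0.0842 to 0.171 CPM in the others. The CB4856 library of batch 9 had 29.5 CPM of ugt-18, against 0.375 to 6.43 CPM in the other CB4856 libraries, and 9.12 CPM of ugt-33, against 0.801 to 1.87 CPM. It had 14.1 CPM of ugt-63, against 48.5 to 62.8 CPM. The N2 library of batch 6 had 15 CPM of ugt-16, against 7.37 to 7.85 CPM in the other N2 libraries.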

How the results depend on the processing

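Between N2 and CB4856, 13 UGT genes were called, and the total was 8 to 20 with 1 library left out, the fewest without the N2 library of batch 8 and the most without that of batch 9. The remaining alternatives gave 9 to 14, with 11 under the replicate block, and the 13 called genes, with ugt-9, ugt-16, ugt-22 and ugt-62, kept their direction. Directions of some uncalled genes did turn, as for ugt-30 with the first component as a covariate (log2 -0.57, against 1.13). With the first component as a covariate, batches of lines against the others had 7 called members in batch 2 (13 before; 5.47% of all genes), 14 in batch 3 (26; 7.89%), 1 in batch 6 (2; 1.69%) and 1 in batch 7 (23; 0.524%), and without QX571 batch 7 had 11 (22.3%); the causes were not tested. Counts over all batches (46 to 53 of 63), lines against midpoint (0) and neighbouring pairs (14 to 17) stayed within 1.5 times. The replicate block changed no call other than those given for ugt-15, ugt-18, ugt-26, ugt-36, ugt-39 and ugt-41. With 1 library per line, differences between single lines have no error of their own, and genes below 1 CPM rest on few counts.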
